A study of Mus musculus with 47 samples.

Results

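The Kruppel-like factors described here are 7 transcription factors, Klf2, Klf3, Klf4, Klf6, Klf7, Klf10 and Klf13. They were taken by gene symbol from the 21000 genes that each deposited table lists, and all 7 were found in all 47 libraries. Another 10 genes of the Klf family and 9 genes of the related Sp family are listed beside them. They are given below as counts, with values only for some genes that were called. Kruppel-like factors bind GC-rich CACCC-type DNA through zinc fingers at their carboxyl end. Klf2, Klf4, Klf6 and Klf7 act mainly as activators of transcription, Klf3 is a repressor that recruits CtBP proteins, and Klf10 and Klf13 are repressors that recruit Sin3a. In blood cells the family is known for controlling quiescence, trafficking and lineage choice, and Klf4 is required in mice for a subset of type 2 classical dendritic cells.

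RNA-seq was carried out on mouse dendritic cells and the progenitors they come from, in 17 groups. The primary wild type (WT) cells were monocyte-dendritic cell progenitors (MDP), a single common dendritic cell progenitor (CDP) library and precursors of type 1 classical dendritic cells (pre-cDC1) from marrow, with pre-cDC1 and a single library of type 1 classical dendritic cells (cDC1) from spleen. WT MDP, CDP, pre-cDC1, cDC1, pre-cDC2 and cDC2 also came from marrow cultured with Flt3L, the cytokine that drives dendritic cell development. Every group other than the 2 single libraries has 3 libraries.

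Another 3 groups of Flt3L-cultured pre-cDC1 carried deletions of enhancers of Irf8, the transcription factor on which cDC1 depend. These were d+32 cells, lacking the enhancer 32 kb downstream of the Irf8 start, d+32het cells, heterozygous for that deletion, and d+56het cells, heterozygous for a deletion of the enhancer at 56 kb. The last 3 groups were cDC1 grown in Flt3L culture from Lin– cells: d+56 cells given IRF8, d+32 cells given IRF8, and WT cells given MSCV, a retrovirus. The age, sex and strain of the mice are not stated in the labels used here.

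The 250 bases before the annotated start of the 4 members called in the most comparisons are shown first, because all 4 rose between MDP and pre-cDC1 in marrow. They come from RefSeq on build GRCm38.p6, 5′ to 3′ on the gene's own strand. The windows are chr8:72318812-72319061 on the plus strand for Klf2, chr5:64803271-64803520 on the plus strand for Klf3, chr4:55532476-55532725 on the minus strand for Klf4 and chr13:5861239-5861488 on the plus strand for Klf6. Capitals mark the MEF2 box CTANNNNTAG and the CACCC box, whose reverse strand reads GGGTG.
Klf2: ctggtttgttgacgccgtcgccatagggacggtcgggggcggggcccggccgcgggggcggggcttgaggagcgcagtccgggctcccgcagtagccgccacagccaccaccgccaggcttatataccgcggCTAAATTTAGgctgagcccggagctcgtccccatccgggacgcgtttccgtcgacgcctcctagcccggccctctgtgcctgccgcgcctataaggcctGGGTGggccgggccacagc
Klf3: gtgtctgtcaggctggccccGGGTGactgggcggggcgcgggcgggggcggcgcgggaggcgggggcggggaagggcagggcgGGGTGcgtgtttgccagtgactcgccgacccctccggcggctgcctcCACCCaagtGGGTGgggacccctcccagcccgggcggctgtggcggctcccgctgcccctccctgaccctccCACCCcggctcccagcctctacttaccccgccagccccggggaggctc
Klf4: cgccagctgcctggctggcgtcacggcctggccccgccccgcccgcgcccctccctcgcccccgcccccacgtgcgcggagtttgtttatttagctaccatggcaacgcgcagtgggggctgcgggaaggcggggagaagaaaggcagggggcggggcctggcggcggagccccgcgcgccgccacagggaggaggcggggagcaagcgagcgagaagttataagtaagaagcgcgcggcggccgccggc
Klf6: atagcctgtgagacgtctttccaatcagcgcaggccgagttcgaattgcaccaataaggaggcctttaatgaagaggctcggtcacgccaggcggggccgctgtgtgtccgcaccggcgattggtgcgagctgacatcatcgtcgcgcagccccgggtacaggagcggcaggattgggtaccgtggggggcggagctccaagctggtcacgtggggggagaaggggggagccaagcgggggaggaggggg

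Klf2 had 1 MEF2 box, which starts 118 bases before the gene's start, and 1 CACCC box, which starts 19 bases before it, and the 2 do not overlap. The MEF2 box is the motif through which MEF2 factors, activated by the kinase ERK5, are known to induce Klf2. Klf3 had 5 CACCC boxes and no MEF2 box, and neither motif was found in the windows of Klf4 and Klf6. Klf7 had 3 CACCC boxes and Klf13 had 1 among the 6 members matched in the promoter table, though the Klf7 window precedes a start that lies inside the gene's annotated span. No window of these 6 members held the cyclic AMP response element TGACGTCA or a CArG box. Searched on both strands, the MEF2 box was in 3.2% and the CACCC box in 52.0% of all 32851 windows of this length.

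Library totals ran between 14660655 and 43084068 counts, with a median of 28884353. Levels are given as counts per 1000000 counts (CPM), scaled by trimmed-mean (TMM) factors over all 47 libraries, and a fold change counts as called where edgeR's quasi-likelihood test gave an adjusted p below 0.05 over all genes tested. The design text speaks of duplicates while the labels number 3 libraries, and nothing says that they come from separate mice, so the p-values cover no more than how these libraries vary, which may be technical variation. In such bulk samples, fewer cells of a type and less RNA per cell cannot be told apart. Where libraries of 2 groups are said not to overlap, this is a description and not a test. In d+32 over WT pre-cDC1, 33.1% of all genes tested had groups that did not overlap. That share is not given for the other comparisons, so groups said to be separate there are not set against all genes. Names conflict for 4 libraries: 2 titled cDC1 have files named pre-cDC2, and 2 titled pre-cDC2 have files named cDC1. Sirpa, a cDC2 surface receptor, was at 1167 and 1691 CPM in the 2 titled cDC1, against 38.9 and 88.2 CPM in the 2 titled pre-cDC2. Xcr1, the cDC1 chemokine receptor, was at 22.8 and 29.7 CPM in the 2 titled cDC1, against 77.3 and 59.0 CPM in the 2 titled pre-cDC2. The file names were followed, and results on cultured cDC1 and pre-cDC2 are also given without these 4 libraries and by title. The 10 cDC1 markers summed to between 404 and 462 CPM in marrow pre-cDC1, between 1992 and 2433 CPM in cultured WT pre-cDC1 and between 83.0 and 96.6 CPM in primary MDP. The 10 cDC2 markers summed to between 1859 and 2270 CPM in marrow pre-cDC1, between 832 and 960 CPM in cultured WT pre-cDC1 and between 1004 and 1317 CPM in primary MDP.

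Across the 17 groups, Klf2 and Klf4 spanned the widest range and Klf13 the narrowest. The mean of Klf2, which keeps lymphocytes quiescent and controls their trafficking, was 29.5 CPM in spleen pre-cDC1 and 0.643 CPM in primary MDP, a ratio of 46.0. Klf4, which promotes monocyte differentiation, had a mean of 44.0 CPM in marrow pre-cDC1 against 1.57 CPM in the single spleen cDC1 library, a ratio of 28.1. The same ratio of highest to lowest group mean was 8.36 for Klf3, 5.46 for Klf10, 4.95 for Klf6, 4.57 for Klf7 and 2.85 for Klf13. The lowest group of Klf10 and Klf13 was also the single spleen cDC1 library. The order of neighbouring groups was seldom resolved. Of the 16 gaps between neighbours in the order of means, the libraries did not overlap at 6 for Klf3, 3 for Klf2 and Klf6, 2 for Klf10 and Klf13, and 1 for Klf4 and Klf7. Some of these gaps lie beside a group of 1 library, which has no range and so separates more easily.

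**Figure D1:**
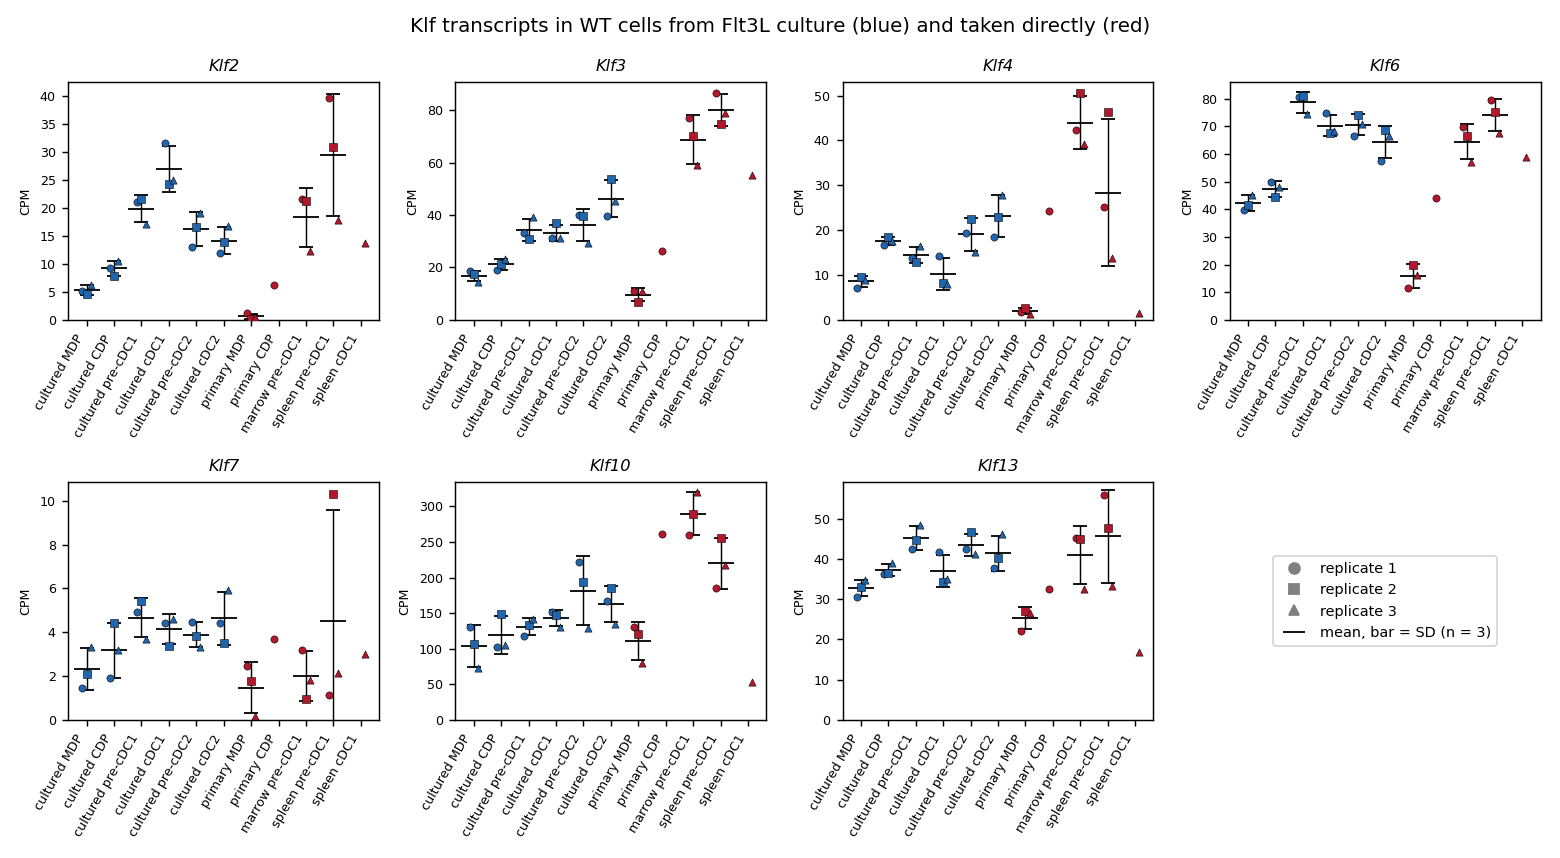
CPM (y axis) of the 7 members in WT libraries, with cultured groups in blue on the left and primary groups in red on the right of each panel. Points are libraries, shaped by replicate number, and the line and bar are mean and SD (n = 3), except that primary CDP and spleen cDC1 are 1 library each with no SD. Klf2 sits between 4.68 and 6.33 CPM in cultured MDP, against 0.190 to 1.20 CPM in primary MDP, and Klf4 between 12.9 and 16.4 CPM in cultured pre-cDC1, against 39.2 to 50.5 CPM in marrow pre-cDC1.

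Compared per length, as CPM per kilobase of transcript, Klf10 had the highest level of the 7 in every group and Klf7 the lowest. Klf10, a gene induced early by TGF-beta, reached 111.77 CPM per kilobase in marrow pre-cDC1. In the same cells Klf6 stood at 15.3, Klf4 at 14.5, Klf3 at 13.2, Klf2 at 9.95, Klf13 at 6.41 and Klf7 at 0.259 CPM per kilobase. Klf7 had between 5 and 209 counts in a library, so its fold changes carry a large counting error. Klf3 overlaps 1 gene and Klf7 overlaps 2 genes annotated on the opposite strand, and the library kits do not mark strand, so reads of those genes cannot be told apart from their own.

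In primary marrow, 5 of the 7 members rose in pre-cDC1 relative to MDP, and none fell. This comparison sets MDP beside cells labelled as cDC1 precursors and skips the CDP stage. Markers called higher in these pre-cDC1 were 4 of 10 for cDC1, 4 of 10 for cDC2 and 3 of 8 for plasmacytoid dendritic cells. In each of these lists 0 were called lower, so the comparison is not a measure of cDC1 commitment alone. Klf2 had 21.6, 21.2 and 12.3 CPM in the 3 marrow pre-cDC1 libraries, against 1.20, 0.190 and 0.543 CPM in the 3 primary MDP libraries. The 2 groups were far apart, and the MDP values rest on 53, 7 and 15 counts. The log2 fold change of Klf2 was 4.80 (SE 0.70, edgeR adjusted p = 0.00591), and it was 5.62 without the first MDP library.

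Klf4 behaved alike, with 42.3, 50.5 and 39.2 CPM in marrow pre-cDC1 against 1.87, 2.69 and 1.27 CPM in primary MDP. No library of one group came near the other, and the log2 fold change was 4.48 (SE 0.51, adjusted p = 0.00231). Klf6, an activator that macrophages use in inflammation, had 69.7, 66.6 and 57.3 CPM in marrow pre-cDC1 against 11.6, 19.9 and 16.2 CPM in primary MDP. Its groups were likewise separate, with a log2 fold change of 2.00 (SE 0.24, adjusted p = 0.00271).

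The CtBP-binding repressor Klf3 was at 77.1, 70.2 and 58.9 CPM in marrow pre-cDC1 against 11.1, 6.73 and 10.9 CPM in primary MDP. Its log2 fold change was 2.83 (SE 0.25, adjusted p = 0.000915), with no overlap between the groups. Klf10 had 259.8, 289 and 321 CPM in marrow pre-cDC1 against 131, 121 and 79.9 CPM in primary MDP, again without overlap. Its log2 fold change was 1.37 (SE 0.22, adjusted p = 0.00904).

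The other 2 members did not pass the test. Klf13, known in human T cells as an activator of a chemokine gene, had 45.4, 45.0 and 32.6 CPM in marrow pre-cDC1 against 22.1, 27.1 and 26.5 CPM in primary MDP, with a log2 fold change of 0.68 (SE 0.25, adjusted p = 0.152). Its adjusted p was below the threshold with all libraries in 1 fit (0.000191) and when no other group was fitted (0.0366). Klf7, a relative of Klf6, had 3.20, 0.928 and 1.82 CPM in marrow pre-cDC1 against 2.46, 1.76 and 0.181 CPM in primary MDP, and its groups overlapped. Of all genes tested, 5.61% were called higher and 2.64% lower in marrow pre-cDC1, and the median log2 fold change was 2.00 over the 7 members against 0.00 over all genes. With the libraries numbered 3 of the primary groups left out, an alternative added after seeing the data, 3 members were called: Klf2 then had a log2 fold change of 4.92 (adjusted p = 0.062) and Klf10 of 1.11 (adjusted p = 0.0536).

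Several marker sums moved with this step. The 8 progenitor markers, among them Kit and Cd34, summed to between 239.5 and 259.6 CPM in marrow pre-cDC1, against 1153 to 1459 CPM in primary MDP. Immediate early genes, which cells induce rapidly on handling or stimulation, as they do several Klf genes, summed over 18 genes to between 484 and 563 CPM in marrow pre-cDC1, against 741 to 1475 CPM in primary MDP. Counted by gene they went the other way, with 5 of the 18 called higher, 1 lower and a median log2 fold change of 1.01 in marrow pre-cDC1 over MDP. Among the 5 were Ier5 with 3.27 (adjusted p = 0.000645), Btg2 with 2.27 (0.00113) and Junb with 1.61 (0.00307). The part of either list in the Klf differences was not tested.

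In Flt3L culture, Klf4 was called from MDP to CDP, and Klf2, Klf3 and Klf6 from CDP to pre-cDC1. Between cultured MDP and CDP 1 of the 7 members was called, Klf4, with 16.8, 18.6 and 17.6 CPM in CDP against 7.12, 9.64 and 8.97 CPM in MDP. The log2 fold change of Klf4 was 1.04 (SE 0.23, adjusted p = 0.045), in a comparison where 1.0% of all genes were called. This call was lost without each of the 6 libraries in turn, with adjusted p between 0.0897 and 0.153, and its adjusted p reached 0.0758 when no other group was fitted and 0.192 with all libraries in 1 fit. Klf2 had 9.31, 7.92 and 10.6 CPM in CDP against 5.13, 4.68 and 6.33 CPM in MDP, values that did not overlap, with a log2 fold change of 0.79 (SE 0.19, adjusted p = 0.0729).

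From CDP to pre-cDC1 in culture, Klf2, Klf6 and Klf3 rose. Klf2 had 21.1, 21.6 and 17.1 CPM in pre-cDC1 against the CDP values above, a log2 fold change of 1.10 (SE 0.19, adjusted p = 0.00059). Klf6 had 80.8, 80.9 and 74.4 CPM in pre-cDC1 against 49.7, 44.3 and 48.2 CPM in CDP, a log2 fold change of 0.73 (SE 0.09, adjusted p = 3.96e-05). Klf3 had 33.1, 30.9 and 39.1 CPM in pre-cDC1 against 18.9, 21.3 and 23.2 CPM in CDP, a log2 fold change of 0.70 (SE 0.15, adjusted p = 0.0038).

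The groups did not overlap for any of these 3 genes, and all 3 calls held without each of the 6 libraries in turn. Klf4 had 13.9, 12.9 and 16.4 CPM in pre-cDC1, a little below every CDP library, with a log2 fold change of -0.29 that was not called. Klf13 had a log2 fold change of 0.28 (SE 0.10, adjusted p = 0.0609), and it was called by DESeq2 (0.0158), with its size factors in edgeR (0.0462), when no other group was fitted (0.042) and without the first pre-cDC1 library (0.0454). Of all genes, 13.1% were called higher and 12% lower in this comparison, and the median log2 fold change was 0.56 over the members against -0.04 over all genes. The 18 immediate early genes summed to between 727 and 773 CPM in pre-cDC1 against 330.3 to 381 CPM in CDP, and 13 of them were called higher and 1 lower. Their part in the rise of the Klf genes was not tested.

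In pre-cDC2, Klf2, Klf6 and Klf3 were also called higher than in CDP. Klf2 averaged 16.2 ± 3.08 CPM in pre-cDC2 and 9.29 ± 1.35 CPM in CDP (SD, n = 3 each), a log2 fold change of 0.81 (SE 0.19, adjusted p = 0.00695). Klf6 averaged 70.5 ± 3.79 CPM in pre-cDC2 and 47.4 ± 2.81 CPM in CDP, a log2 fold change of 0.57 (SE 0.09, adjusted p = 0.000429). Klf3 averaged 36.2 ± 6.1 CPM in pre-cDC2 and 21.1 ± 2.18 CPM in CDP, a log2 fold change of 0.78 (SE 0.16, adjusted p = 0.00237).

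In that comparison 12.3% of all genes were called higher and 8.83% lower. Without the 4 libraries of conflicting name, which leaves 1 pre-cDC2 library assumed to vary like the other groups, Klf2 and Klf6 were still called and Klf3 had a log2 fold change of 0.46 (adjusted p = 0.195). With these libraries placed by title, all 3 genes were called and Klf2 had a log2 fold change of 1.43. With all libraries in 1 fit the adjusted p of Klf2 was 0.102. Mast cell and basophil markers summed over 7 genes to between 107 and 378 CPM in pre-cDC2 against 2.01 to 4.62 CPM in CDP, and neutrophil markers over 9 genes to between 87.5 and 325 CPM against 72.8 to 87.3 CPM in CDP. The 10 cDC1 markers summed to between 1334 and 2434 CPM in pre-cDC2 against 166 to 182 CPM in CDP, all 10 called higher, a range that overlaps that of pre-cDC1. The 18 immediate early genes summed to between 670.1 and 857 CPM in pre-cDC2 against 330.3 to 381 CPM in CDP, with 14 called higher and 0 lower. Their part in the Klf differences was not tested.

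The final steps, from precursor to mature cell, gave no called member. Between cDC1 and pre-cDC1, 0 of 7 passed edgeR's test, 3 had an unadjusted p under 0.05 and 0 passed in DESeq2, where edgeR called 7.03% of all genes. Klf4 had 14.3, 8.21 and 8.04 CPM in cDC1, where 1 library lay at the level of pre-cDC1 and the others below it. Without that first cDC1 library Klf4 had a log2 fold change of -0.82 (adjusted p = 0.0277) and Klf13 of -0.38 (adjusted p = 0.0416). Between cDC2 and pre-cDC2, 0 of 7 passed, 1 had an unadjusted p under 0.05 and 0 passed in DESeq2, against 18% of all genes by edgeR. With the conflicting libraries placed by title, 2 members were called there, Klf2 with a log2 fold change of -0.82 and Klf3 of 0.51.

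Klf2 and Klf4 differed in opposite directions between cultured cDC1 and cDC2. Klf2 had 31.7, 24.4 and 25.0 CPM in cDC1 against 11.9, 13.99 and 16.8 CPM in cDC2, and every cDC1 library exceeded every cDC2 library. Its log2 fold change was 0.93 (SE 0.19, adjusted p = 0.00423). Klf4 had 14.3, 8.21 and 8.04 CPM in cDC1 against 18.6, 22.9 and 27.9 CPM in cDC2, also without overlap, a log2 fold change of -1.18 (SE 0.23, adjusted p = 0.00301). Klf3 was at 31.3, 36.8 and 31.3 CPM in cDC1 against 39.6, 53.6 and 45.5 CPM in cDC2, with a log2 fold change of -0.48 (adjusted p = 0.0531).

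Of all genes, 6.03% were called higher and 7.6% lower in cDC1 than in cDC2. Of the 3 cDC1 libraries, 2 have conflicting names, and the calls depended on them. Without them the single remaining cDC1 library left Klf4 called and gave Klf2 a log2 fold change of 0.82 (adjusted p = 0.11). By title, Klf2 had a log2 fold change of 0.36 (adjusted p = 0.44) and Klf4 of -0.47 (adjusted p = 0.424). With all libraries in 1 fit the adjusted p of Klf2 was 0.0909. Monocyte and macrophage markers summed over 9 genes to between 382 and 401 CPM in cDC1 against 838 to 969 CPM in cDC2, with 6 called lower in cDC1. Mast cell and basophil markers summed to between 12.8 and 13.8 CPM in cDC1 against 146 to 347 CPM in cDC2, and plasmacytoid dendritic cell markers to between 586 and 733 CPM in cDC1 against 1482 to 1675 CPM in cDC2. The part of these markers in the Klf2 and Klf4 differences was not tested.

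Cells of the same name differed between culture and marrow at both stages. In MDP, 4 members were higher in culture. Klf2 had 5.13, 4.68 and 6.33 CPM in cultured MDP against the primary MDP values of at most 1.20 CPM, a log2 fold change of 2.99 (SE 0.49, adjusted p = 0.00415) that was 3.84 without the first primary MDP library. Klf4 had 7.12, 9.64 and 8.97 CPM in cultured MDP against 1.87, 2.69 and 1.27 CPM in primary MDP, a log2 fold change of 2.08 (SE 0.25, adjusted p = 0.000611). Klf6 had 39.6, 41.6 and 45.3 CPM in cultured MDP against 11.6, 19.9 and 16.2 CPM in primary MDP, a log2 fold change of 1.35 (SE 0.18, adjusted p = 0.00118).

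None of these 3 genes had overlapping groups. Klf3 had 18.5, 17.4 and 14.5 CPM in cultured MDP against 11.1, 6.73 and 10.9 CPM in primary MDP, a log2 fold change of 0.76 (SE 0.20, adjusted p = 0.0439). The call of Klf3 was lost without 5 of the 6 MDP libraries in turn, with adjusted p of 0.13, 0.118 and 0.0549 without cultured libraries 1, 2 and 3 and of 0.0546 and 0.107 without primary libraries 1 and 2; with only the 2 groups in the fit it was 0.125 for Klf3 and 0.0621 for Klf2. Of all genes, 5.38% were called higher and 2.9% lower in cultured MDP. The 18 immediate early genes summed to 535 to 760 CPM in cultured MDP against 741 to 1475 CPM in primary MDP. By gene, 8 were called higher and 1 lower in culture, with a median log2 fold change of 1.11. Their part in the Klf differences was not tested.

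At the pre-cDC1 stage 3 members were lower in culture than in marrow. Klf4 had 13.9, 12.9 and 16.4 CPM in cultured pre-cDC1 against 42.3, 50.5 and 39.2 CPM in marrow pre-cDC1, a log2 fold change of -1.61 (SE 0.24, adjusted p = 0.00101). Klf3 had 33.1, 30.9 and 39.1 CPM in cultured pre-cDC1 against 77.1, 70.2 and 58.9 CPM in marrow pre-cDC1, a log2 fold change of -0.997 (SE 0.20, adjusted p = 0.00523). Klf10 had 118, 134 and 141 CPM in cultured pre-cDC1 against 259.8, 289 and 321 CPM in marrow pre-cDC1, a log2 fold change of -1.14 (SE 0.23, adjusted p = 0.0049).

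All 3 genes were clear of overlap, and Klf2, Klf6, Klf7 and Klf13 were not called. Of all genes, 10.7% were called higher and 11.2% lower in cultured pre-cDC1. The 18 immediate early genes summed to 727 to 773 CPM there against 484 to 563 CPM in marrow pre-cDC1, with 10 called higher and 2 lower. Their median log2 fold change was 2.43, and their part in the Klf values was not tested. The cDC2 markers summed to 832 to 960 CPM in cultured pre-cDC1 against 1859 to 2270 CPM in marrow pre-cDC1, and the part of this difference in the Klf values was not tested.

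The step from MDP to pre-cDC1 therefore had a different size in the 2 settings, and an interaction term tested that difference over the same 12 libraries. The step in culture minus the step in marrow was -3.69 on the log2 scale for Klf4 (SE 0.35, adjusted p = 0.000289), -2.87 for Klf2 (SE 0.65, adjusted p = 0.0185), -1.76 for Klf3 (SE 0.29, adjusted p = 0.0042) and -1.07 for Klf6 (SE 0.25, adjusted p = 0.0217). All 4 went the same way, with a smaller rise in culture, while 4.78% of all genes were called higher and 6.64% lower. Klf10 had a difference of -0.996 (SE 0.32, adjusted p = 0.0698).

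The Klf2 difference was -3.72 without the first primary MDP library. The Klf6 call was lost without the third cultured MDP library (adjusted p = 0.0511), the third cultured pre-cDC1 library (0.0514), the first marrow pre-cDC1 library (0.0566) or the second (0.0515). The Klf10 difference was called without the third cultured MDP library, at -1.20 (adjusted p = 0.0267). The single primary CDP library had 6.32 CPM of Klf2, 24.3 of Klf4, 44.0 of Klf6, 26.2 of Klf3 and 262 of Klf10, each between the means of primary MDP and marrow pre-cDC1. With 1 library no test of it was made.

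**Figure D2:**
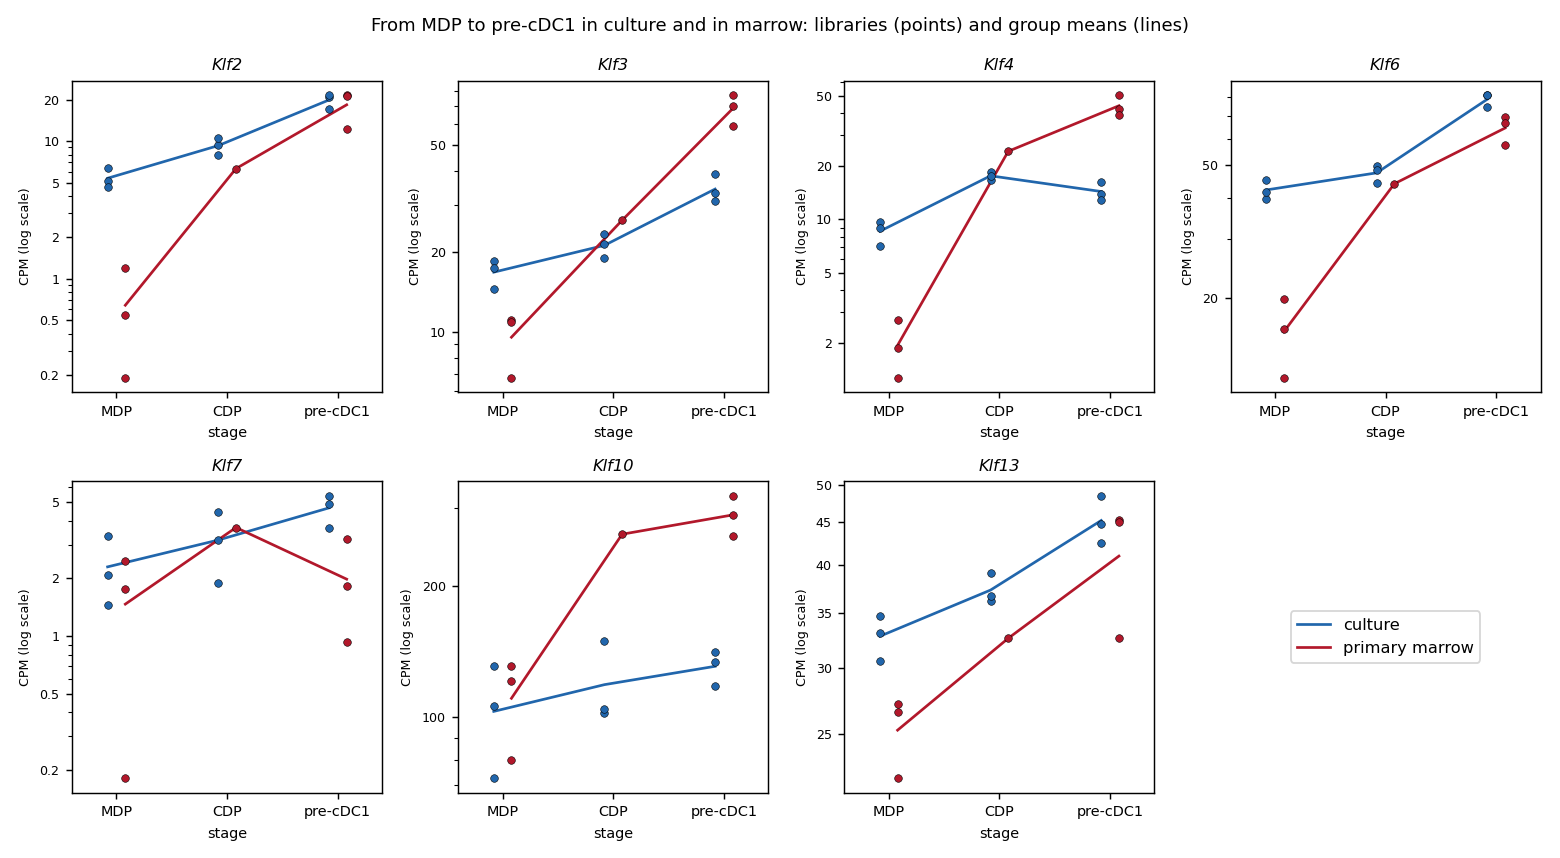
CPM on a log axis (y) at the MDP, CDP and pre-cDC1 stages (x) in culture (blue) and in primary marrow (red), 1 panel for each member. Points are libraries and lines join group means; the primary CDP is a single library. For Klf4 the lines cross, at means of 14.4 CPM in cultured pre-cDC1 against 44.0 CPM in marrow pre-cDC1 and of 8.58 CPM in cultured MDP against 1.94 CPM in primary MDP.

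Between spleen and marrow pre-cDC1, 0 of 7 members passed edgeR's test, 0 had an unadjusted p under 0.05 and 0 passed in DESeq2, where edgeR called 1.88% of all genes. The spleen libraries varied widely: Klf2 had 39.8, 30.9 and 17.98 CPM, Klf4 had 25.1, 46.3 and 13.8 CPM, and Klf7 had 1.13, 10.3 and 2.11 CPM. Klf4 had a log2 fold change of -0.66 (SE 0.44, adjusted p = 0.546) and Klf2 of 0.66 (SE 0.60, adjusted p = 0.684). The single spleen cDC1 library had 1.57 CPM of Klf4 and 13.7 CPM of Klf2.

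Deletion of the Irf8 enhancers changed Irf8 itself in every mutant pre-cDC1 group. Irf8 averaged 493 ± 37.8 CPM in d+32, 1227 ± 116 CPM in d+32het and 984 ± 98 CPM in d+56het against 3420.2 ± 126 CPM in WT pre-cDC1 (SD, n = 3 each). Its log2 fold change was -2.80 in d+32, -1.48 in d+32het and -1.79 in d+56het, all called. The 3 comparisons share the WT libraries.

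In d+56het pre-cDC1, Klf3 rose and Klf2 fell. Klf3 had 46.4, 44.2 and 53.1 CPM in d+56het against 33.1, 30.9 and 39.1 CPM in WT, a log2 fold change of 0.49 (SE 0.13, adjusted p = 0.0358). Klf2 had 14.4, 8.78 and 9.30 CPM in d+56het against 21.1, 21.6 and 17.1 CPM in WT, a log2 fold change of -0.87 (SE 0.23, adjusted p = 0.0313). The groups did not overlap for either gene. The next 2 by adjusted p were Klf4 at 25.4, 17.98 and 22.0 CPM in d+56het against 13.9, 12.9 and 16.4 CPM in WT, with a log2 fold change of 0.61 (SE 0.19, adjusted p = 0.0685), and Klf6 with -0.32 (SE 0.11, adjusted p = 0.0832).

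The 2 calls stand beside 6.12% of all genes called higher and 6.27% lower in d+56het. The Klf2 call was lost without the first WT library (adjusted p = 0.0983), the second WT library (0.108), the second d+56het library (0.0881) or the third (0.0902), with only the 2 groups in the fit (0.0823) and with all libraries in 1 fit (0.077). The Klf3 call was lost without the first WT library (0.128), the second WT library (0.146), the first d+56het library (0.0641) or the third (0.102) and with only the 2 groups in the fit (0.0989). The 8 plasmacytoid dendritic cell markers summed to between 2110.3 and 3249 CPM in d+56het against 698 to 828 CPM in WT, the 10 cDC2 markers to 2721 to 3411 CPM against 832 to 960 CPM in WT, and the 10 cDC1 markers to 322 to 352 CPM against 1992 to 2433 CPM in WT. The part of these markers in the Klf differences was not tested.

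In d+32het pre-cDC1 the same repressor, Klf3, was the only member called. It had 47.5, 46.6 and 57.5 CPM in d+32het against 33.1, 30.9 and 39.1 CPM in WT, without overlap, a log2 fold change of 0.55 (SE 0.13, adjusted p = 0.0469). Of all genes, 2.31% were called higher and 1.4% lower. This call was lost without the first WT library (adjusted p = 0.172), the second WT library (0.196), and d+32het libraries 1 (0.0671), 2 (0.0701) and 3 (0.132), with only the 2 groups in the fit (0.133) and with no filter on low counts (0.0537). The 10 cDC2 markers summed to between 2293 and 2418 CPM in d+32het against 832 to 960 CPM in WT, the 8 plasmacytoid dendritic cell markers to 1430 to 1782 CPM against 698 to 828 CPM in WT, and the 10 cDC1 markers to 535 to 802 CPM against 1992 to 2433 CPM in WT. Their part in the Klf3 difference was not tested.

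In d+32 pre-cDC1, 0 of 7 members passed edgeR's test, 5 had an unadjusted p under 0.05, and 3 passed in DESeq2, which were Klf3, Klf10 and Klf6. edgeR called 4.52% of all genes. Klf3 had 49.6, 48.0 and 47.6 CPM in d+32 against 33.1, 30.9 and 39.1 CPM in WT, a log2 fold change of 0.49 (SE 0.13, adjusted p = 0.0709). Klf10 had 167, 185 and 199.5 CPM in d+32 against 118, 134 and 141 CPM in WT, a log2 fold change of 0.48 (SE 0.13, adjusted p = 0.078). Both were separate in every library.

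Klf2 had 11.4, 14.8 and 14.5 CPM in d+32, below every WT library, with a log2 fold change of -0.56 (SE 0.22, adjusted p = 0.24). Klf6 had 64.6, 64.8 and 64.5 CPM in d+32 against 80.8, 80.9 and 74.4 CPM in WT, a log2 fold change of -0.29 (SE 0.11, adjusted p = 0.196). Klf7 had 2.95, 1.68 and 0.932 CPM in d+32 against 4.92, 5.41 and 3.67 CPM in WT, a log2 fold change of -1.33 (SE 0.57, adjusted p = 0.28). In the 6 heterozygous libraries Klf7 was also below every WT library, at 1.05 to 2.35 CPM in d+32het (log2 fold change -1.35, adjusted p = 0.246) and 1.63 to 2.88 CPM in d+56het (-1.13, adjusted p = 0.237). In d+32 over WT, 5 of 7 members had groups that did not overlap, beside 33.1% of all genes tested. The 10 cDC2 markers summed to 3260 to 3804 CPM in d+32 against 832 to 960 CPM in WT, with 10 called higher. The 10 cDC1 markers summed to 334 to 404 CPM against 1992 to 2433 CPM in WT, with 7 called lower and 0 higher. The 8 plasmacytoid dendritic cell markers summed to 1027 to 1135 CPM against 698 to 828 CPM in WT. Mast cell and basophil markers summed to between 141 and 509 CPM in d+32 against 1.41 to 11.3 CPM in WT. The part of these markers in the Klf values was not tested.

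**Figure D3:**
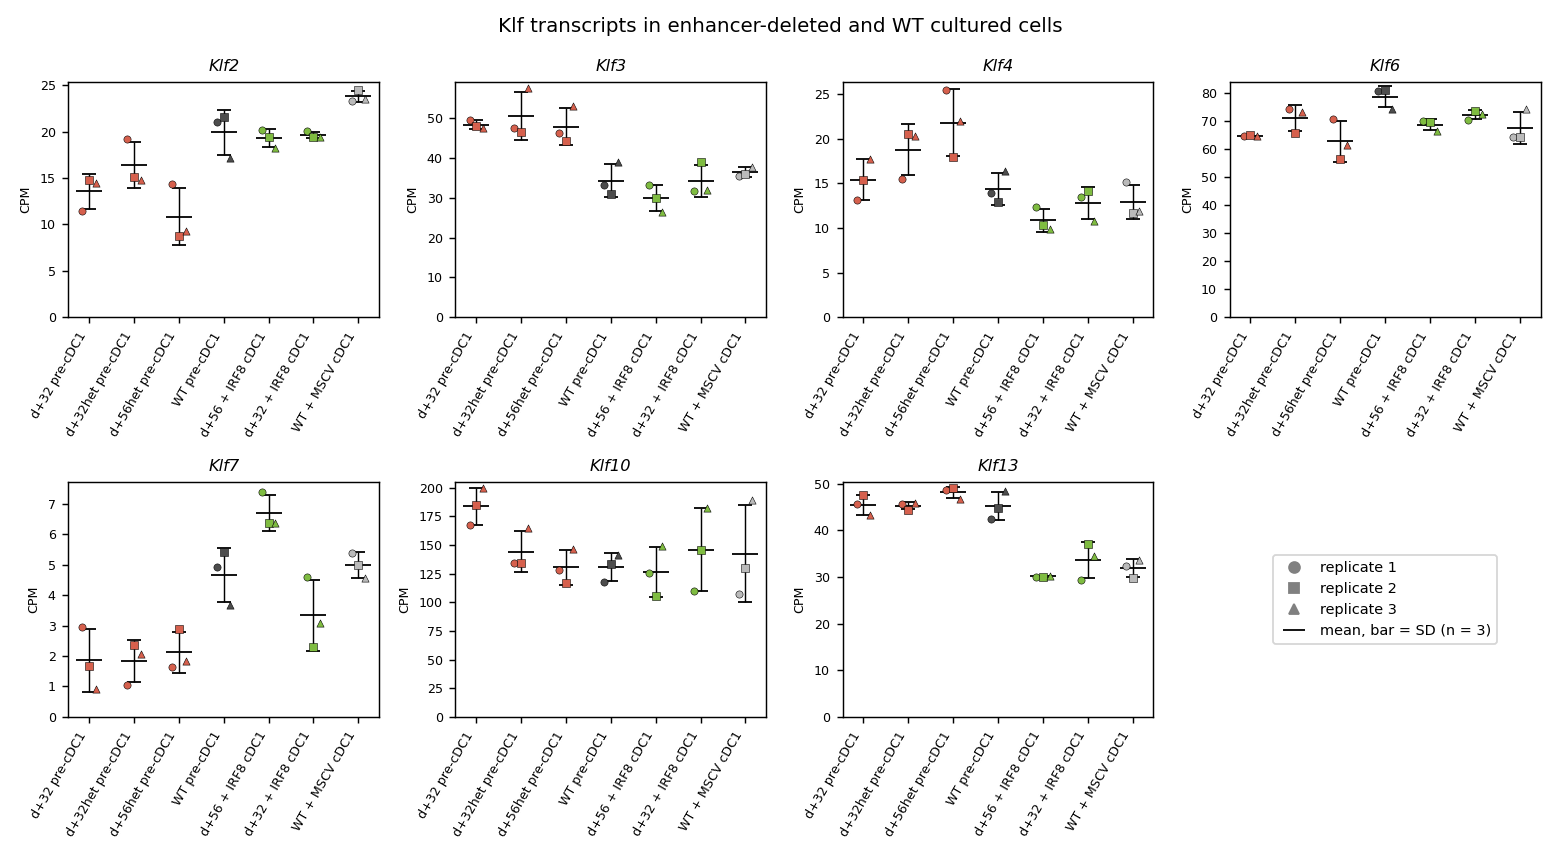
CPM (y axis) of the 7 members in cultured cells, with d+32, d+32het and d+56het pre-cDC1 left of WT pre-cDC1, and d+56 and d+32 cDC1 with IRF8 left of WT cDC1 with MSCV. Points are libraries, line and bar are mean and SD (n = 3). Klf3 lies between 44.2 and 57.5 CPM in the 9 mutant pre-cDC1 libraries, against 30.9 to 39.1 CPM in WT pre-cDC1.

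The mutants were also compared with each other. Between d+32 and d+32het, 0 of 7 members passed edgeR's test, 1 had an unadjusted p under 0.05 (Klf10, log2 fold change 0.34, adjusted p = 0.498) and 0 passed in DESeq2, where edgeR called 0.0689% of all genes. Between d+56het and d+32het, 0 of 7 passed, 1 had an unadjusted p under 0.05 (Klf2, log2 fold change -0.58, adjusted p = 0.288) and 0 passed in DESeq2, where edgeR called 0.526% of all genes. Klf2 was called against WT in d+56het and not in d+32het, but a difference between these 2 groups was not called.

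In the transduced cDC1, no member was called by edgeR. Klf2 had 20.2, 19.5 and 18.3 CPM in d+56 cells with IRF8 and 20.02, 19.4 and 19.5 CPM in d+32 cells with IRF8 against 23.3, 24.5 and 23.5 CPM in WT cells with MSCV. Every rescued library lay below every WT library. Neither difference was called, and the share of all genes that separated in this way is not given here. The log2 fold change of Klf2 was -0.31 (SE 0.09, adjusted p = 0.157) in d+56 cells and -0.28 (SE 0.09, adjusted p = 0.163) in d+32 cells, comparisons that share the WT libraries. The 10 cDC2 markers summed to 626 to 732 CPM in d+56 cells and 1188 to 1564 CPM in d+32 cells, against 403 to 485 CPM in WT. Of these 10, 1 was called higher in d+56 cells and 4 in d+32 cells, and 0 lower. The part of these markers in the Klf2 values was not tested.

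Against WT cells with MSCV, 0 of 7 members were called by edgeR in d+56 cells, with 2 at an unadjusted p under 0.05 and 1, Klf2, by DESeq2, while edgeR called 1.65% of all genes. In d+32 cells 0 of 7 were called, with 1 at an unadjusted p under 0.05 and 1, Klf2, by DESeq2, while edgeR called 2.07% of all genes. Between d+56 and d+32 cells with IRF8, 0 of 7 were called by edgeR, with 1 at an unadjusted p under 0.05 and 1, Klf7, by DESeq2, beside 1.05% of all genes. Klf7 had 7.39, 6.36 and 6.37 CPM in d+56 cells with IRF8 against 4.61, 2.31 and 3.09 CPM in d+32 cells with IRF8, a log2 fold change of 1.003 (SE 0.30, adjusted p = 0.181). Irf8 averaged 3622 CPM in d+56 cells with IRF8 against 1338 CPM in d+32 cells with IRF8, a log2 fold change of 1.44 (SE 0.10, adjusted p = 0.00112). In WT cells with MSCV it averaged 3576 CPM. Reads of the given IRF8, where they map to this gene, were not separated from those of the gene itself.

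Over the 18 comparisons between groups, which leave out the step difference, edgeR called Klf3 in 7, Klf2 in 6, Klf4 in 5, Klf6 in 4 and Klf10 in 2, and Klf7 and Klf13 in 0. Klf3 was higher in 6 comparisons and lower in 1, Klf2 higher in 5 and lower in 1, Klf4 higher in 3 and lower in 2, and Klf10 higher in 1 and lower in 1. Klf6 was higher in all 4 of its calls. The comparisons share groups, so these counts are not independent of each other.

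**Figure D4:**
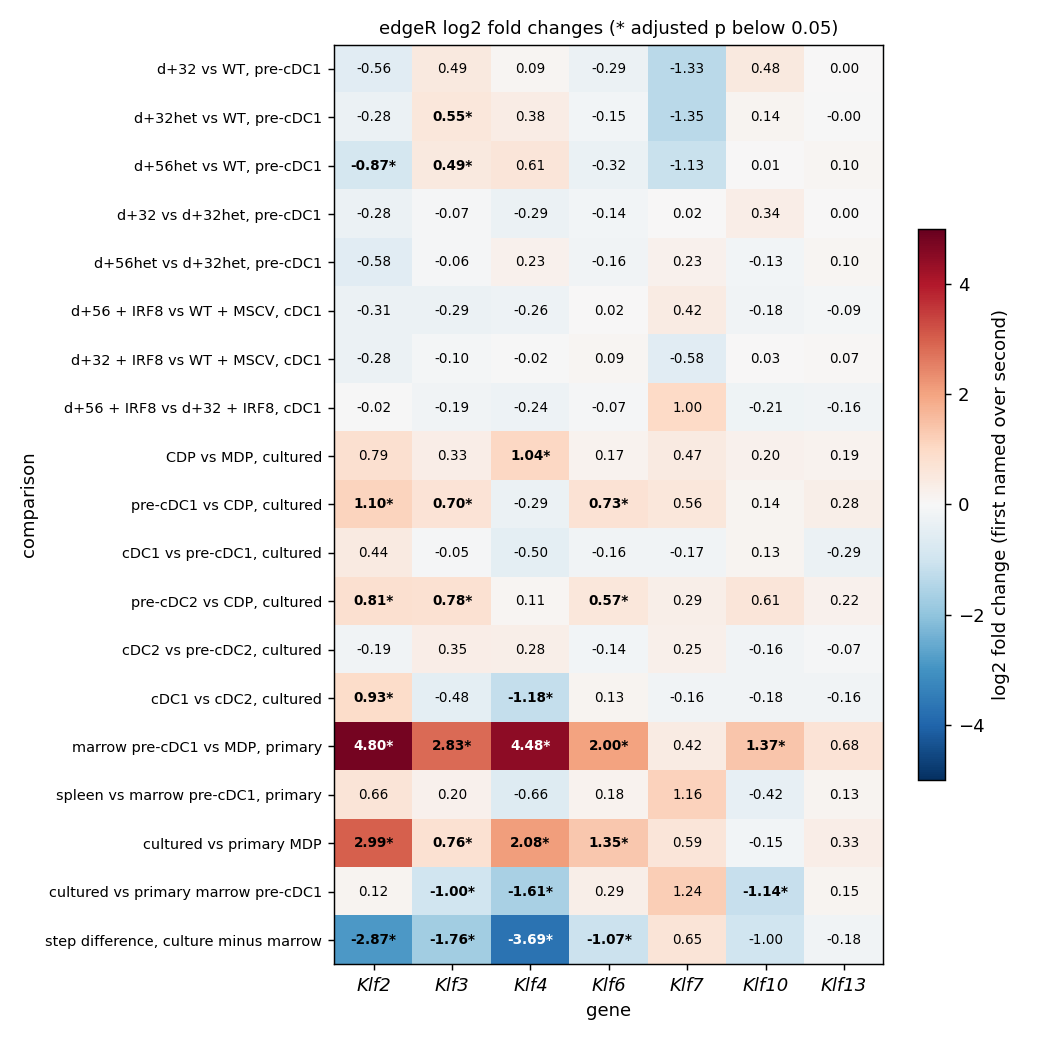
Log2 fold change (colour) of the 7 members (columns) in the 19 comparisons (rows), each written as the first group over the second; a star marks an edgeR adjusted p below 0.05. The strongest colours are the rise of Klf2 (4.80) and Klf4 (4.48) in marrow pre-cDC1 over MDP and the Klf4 step difference (-3.69).

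Proteins and targets that work with the Klf factors were read from lists. Of the 8 genes of the MEF2 and ERK5 pathway, which induces Klf2 and Klf4, 1 was called higher and 0 lower in marrow pre-cDC1 over MDP, Mef2a with a log2 fold change of 1.25 (SE 0.15, adjusted p = 0.00296). In cultured pre-cDC1 over CDP, 0 were higher and 1 lower, Mef2c with -1.10 (SE 0.14, adjusted p = 3.88e-05). The list's medians were 0.26 and -0.13. Of all genes, 5.61% were called higher and 2.64% lower in marrow pre-cDC1 over MDP, and 13.1% higher and 12% lower in cultured pre-cDC1 over CDP. Mef2c was also higher in d+56het than in WT pre-cDC1, at 0.53 (adjusted p = 0.0128).

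Among the 12 corepressors and coactivators, 1 was called higher and 1 lower in marrow pre-cDC1 over MDP, both acetyltransferase genes. Of all genes, 5.61% were called higher and 2.64% lower there. Ep300 had a log2 fold change of 1.69 (SE 0.30, adjusted p = 0.0127) and Kat2a of -1.71 (SE 0.37, adjusted p = 0.0267). Their step differences between culture and marrow were -2.02 for Ep300 (SE 0.31, adjusted p = 0.00306) and 1.20 for Kat2a (SE 0.31, adjusted p = 0.0301). Sin3a, the partner of Klf10 and Klf13, was lower in cultured pre-cDC1 than in CDP, at -0.57 (SE 0.11, adjusted p = 0.00125), and Sin3b was higher, at 0.49 (SE 0.12, adjusted p = 0.00614). The step difference of Sin3a was called as well, at -0.76 (SE 0.20, adjusted p = 0.0323). Both CtBP genes were outside the calls in these comparisons.

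The 8 genes of cell trafficking that Klf2 is known to control in T cells moved without a common direction. In cultured pre-cDC1 over CDP 3 were called higher and 3 lower, with a median log2 fold change of 0.21, beside 13.1% and 12% of all genes. Among them the chemokine receptor Cxcr3 had a log2 fold change of 3.34 (adjusted p = 2.23e-06). In d+56het pre-cDC1, where Klf2 fell, 2 of 7 tested were higher and 1 lower, beside 6.12% and 6.27% of all genes. The chemokine receptor Ccr7 had a log2 fold change of 3.09 (adjusted p = 0.00103) and Cxcr3 of -2.43 (adjusted p = 0.0139).

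TGF-beta signalling, the pathway that induces Klf10, was read from 10 genes. They include receptor and signal carrier genes, such as Tgfbr2 and Smad4, beside feedback genes. Of the 10, 6 were called higher and 0 lower in cultured pre-cDC1 over CDP, where 13.1% of all genes were called higher. Their median log2 fold change was 1.18, and Skil was among the 6, at 2.63 (SE 0.37, adjusted p = 0.00012). Klf10 itself had a log2 fold change of 0.14 (adjusted p = 0.699) in that comparison. In marrow pre-cDC1 over MDP, where Klf10 was called higher, 0 of the 10 were higher and 2 lower, Tgif1 at -1.55 (SE 0.23, adjusted p = 0.00591) and Smad3 at -1.54 (SE 0.38, adjusted p = 0.0448), with a median of 0.23. Of the other Klf genes, 0 of 6 tested were higher and 1 lower in cultured pre-cDC1 over CDP. The lower one was Klf11, the nearest relative of Klf10, at -1.14 (SE 0.20, adjusted p = 0.000831). Of the Sp genes, 0 of 4 tested were called in cultured pre-cDC1 over CDP. In marrow pre-cDC1 over MDP, 0 of 8 other Klf genes tested were called in either direction, and 1 of 6 Sp genes was higher, Sp3 at 0.91 (SE 0.19, adjusted p = 0.0259). The step difference between culture and marrow was called for Klf11, at -1.85 (SE 0.46, adjusted p = 0.0278), and for Sp3, at -1.33 (SE 0.18, adjusted p = 0.00181). Of 6 ubiquitin ligase genes whose products act on Klf proteins, 1 was higher in cultured pre-cDC1 over CDP, Smurf1 at 1.05 (SE 0.22, adjusted p = 0.00239), and 0 were called in marrow pre-cDC1 over MDP.

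Across the 17 group means, on the log2(CPM + 1) scale, the levels of some members ran close together. Pearson's r was 0.960 between Klf2 and Klf6, 0.831 between Klf4 and Klf10, 0.785 between Klf3 and Klf6, and -0.05 between Klf7 and Klf13. Among 9585 genes, those whose pattern was most like Klf2 were Itgb2 (r = 0.975), Myadm (0.970) and Tnni2 (0.969). For Klf4 they were Bach2 (0.952), L1cam (0.936) and Ak8 (0.936), for Klf6 Itgb2 (0.989), Niban1 (0.988) and Tnni2 (0.971), and for Klf3 Ncoa3 (0.937), Arhgap30 (0.929) and Wdr37 (0.921). For Klf10 they were Arhgap9 (0.899), Mapk3 (0.898) and Zdhhc7 (0.883), for Klf13 Ehd4 (0.941), Ccr2 (0.940) and Gpr183 (0.932), and for Klf7 they included Pbxip1 (0.830) and Proser1 (0.819). These values describe groups that share libraries' scaling and developmental stage, and no test was made of them.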

How the data were processed

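The values are expected counts per gene, 1 table per library, as deposited by the authors, and they are not normalized. Per the submitters' processing notes the tools were STAR 2.7.7a, Picard 2.25.0 and RSEM 1.3.3 with builds mm10 and GRCm38. Their order, the annotation and whether duplicates were removed are not given in the sources used here. Per the labels' protocols, RNA from small sorted samples was amplified with SMART-Seq HT and made into libraries with Nextera XT, which carry neither strand nor molecular identifiers. Counting error alone is thus a lower limit of the error.

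The counts were rounded to whole numbers; between 22 and 66 values per library were not whole, and 0 of these belonged to the members. Related groups were fitted together in 5 families with edgeR 4.0.16 (TMM, filterByExpr, quasi-likelihood F test, Benjamini-Hochberg) in R 4.3.3, with limma 3.58.1. The script was tested on simulated counts. The SE is the log2 fold change over the square root of F. Alternatives were DESeq2 1.42.0, its size factors in edgeR, no filter, only the groups compared, all libraries in 1 fit, a replicate block and each library left out, plus the 2 other placements of the libraries of conflicting name. The members and gene lists were chosen with earlier results of these data known. Values are named for the 7 members, for list genes called by edgeR (up to 4 per list and comparison, by adjusted p) and for the 3 genes most like each member, among genes reaching 10 CPM in a group mean. No pair of libraries of a group agreed within sampling noise. Same-numbered libraries did not deviate together, so the numbers were not taken as pairs. Some genes that these rules name are not reported here.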

Additional observations from a re-analysis of the deposited data

Results flagged for a closer look

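Klf2, Klf3, Klf4 and Klf6 had a step from MDP to pre-cDC1 whose size differed between Flt3L culture and primary marrow, by the test of that difference itself (edgeR, interaction term over 12 libraries). The step in culture minus the step in marrow was -2.87 on the log2 scale for Klf2 (adjusted p = 0.0185), -1.76 for Klf3 (0.0042), -3.69 for Klf4 (0.000289) and -1.07 for Klf6 (0.0217). Immediate early genes and several marker lists also differed between these groups. Of the 18 immediate early genes, 8 were called higher and 1 lower in cultured over primary MDP. In cultured over marrow pre-cDC1, 10 of them were called higher and 2 lower. The step difference itself was called higher for 2 of them and lower for 3. The 9 neutrophil markers summed to 3.34 to 20.8 CPM in cultured pre-cDC1 against 128 to 176 CPM in marrow pre-cDC1. The 8 progenitor markers summed to 746 to 869 CPM in cultured MDP against 1153 to 1459 CPM in primary MDP. The part of these lists in the Klf differences was not tested.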

How the results depend on the processing

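Of 133 member results, 28 were called, and 15 of these calls held under every alternative run. The count of called members moved by over 1.5 times as follows. Under DESeq2 it was 3 in d+32 over WT, 4 in d+56het over WT, 2 in CDP over MDP, and 1 in each comparison of transduced cDC1. With only the groups compared in the fit it was 2 in d+32, 0 in d+32het, 0 in d+56het, 0 in CDP over MDP and 2 in cultured over primary MDP. With all libraries in 1 fit it was 1 in d+56het, 0 in CDP over MDP and 1 in cDC1 over cDC2, and with no filter 0 in d+32het. Placed by title, the conflicting libraries gave 2 in cDC2 over pre-cDC2 and 0 in cDC1 over cDC2, and left out they gave 1 in cDC1 over cDC2. Without the third primary libraries it was 3 in marrow pre-cDC1 over MDP. With each library left out, it ranged from 0 to 1 in d+32het, from 0 to 2 in d+56het, from 0 to 0 in CDP over MDP and from 0 to 2 in cDC1 over pre-cDC1. Smaller moves included gains and losses of 1 call. Klf13 was gained in marrow pre-cDC1 over MDP with all libraries in 1 fit and with only the groups compared. It was also gained in pre-cDC1 over CDP by DESeq2, by its size factors and with only the groups compared. DESeq2 also gained Klf10 in pre-cDC2 over CDP and in the step difference, and Klf3 in cDC1 over cDC2. Klf2 was lost in pre-cDC2 over CDP with all libraries in 1 fit. Without some libraries in turn, Klf3 was lost in cultured over primary MDP and Klf6 in the step difference. The causes were not tested.

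With a replicate block the count was 2 in d+32 over WT (Klf3 0.50, adjusted p = 0.0481; Klf10 0.48, 0.0334) and 0 in CDP over MDP (Klf4 1.04, 0.0856); Klf3 in cultured over primary MDP had 0.78 (0.0659) and Klf10 in pre-cDC2 over CDP 0.60 (0.0414). The numbers do not pair the libraries: same-numbered deviations correlated between -0.0599 and 0.108 over 14255 genes. The block changed 5 of 133 member calls.

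A sign turned in 62 cases, and in 0 of them was the value called on either side. By title, log2 fold changes turned to -0.13 for Klf2, 0.11 for Klf3 and 0.21 for Klf4 in cDC1 over pre-cDC1, -0.49 for Klf4 in pre-cDC2 over CDP (-0.22 left out), 0.19 for Klf10 (0.35 left out) and 0.081 for Klf13 (0.015 left out) in cDC2 over pre-cDC2, and 0.17 for Klf10 and 0.0011 for Klf13 in cDC1 over cDC2, where Klf7 had 0.0041 with these libraries left out. Without the third primary libraries Klf7 had -0.046 in marrow pre-cDC1 over MDP and Klf2 -0.10 in cultured over marrow pre-cDC1. Values near 0 turned for Klf13 in d+32 (-0.0066 in 1 fit, -0.0020 with only the groups compared), in d+32het (0.00070 by DESeq2, 0.0011 by its size factors, 0.0083 with no filter) and in d+32 over d+32het (-0.0044 with no filter, -0.0052 with only the groups compared), for Klf10 in d+56het (-0.0043 in 1 fit) and for Klf7 in d+32 over d+32het (-0.017 with the block). Leaving out 1 library, the ranges that crossed 0 were, in d+32, -0.016 to 0.20 for Klf4 and -0.048 to 0.0599 for Klf13, in d+32het -0.053 to 0.055 for Klf13 and in d+56het -0.091 to 0.084 for Klf10. In d+32 over d+32het they were -0.12 to 0.043 for Klf3, -0.48 to 0.34 for Klf7 and -0.036 to 0.043 for Klf13, and in d+56het over d+32het -0.15 to 0.045 for Klf3 and -0.056 to 0.45 for Klf7. In d+56 cells with IRF8 they were -0.013 to 0.096 for Klf6 and -0.34 to 0.093 for Klf10, in d+32 cells with IRF8 -0.095 to 0.11 for Klf4, -0.16 to 0.29 for Klf10 and -0.0044 to 0.15 for Klf13, and between these groups -0.056 to 0.017 for Klf2. In culture they were -0.13 to 0.053 for Klf3 in cDC1 over pre-cDC1, -0.012 to 0.30 for Klf4 in pre-cDC2 over CDP, -0.36 to 0.013 for Klf10 and -0.15 to 0.0022 for Klf13 in cDC2 over pre-cDC2, and -0.30 to 0.079 for Klf7 in cDC1 over cDC2. With primary cells they were -0.11 to 1.00 for Klf7 in marrow pre-cDC1 over MDP, -0.29 to 1.68 for Klf7 and -0.032 to 0.30 for Klf13 in spleen over marrow, -0.35 to 0.054 for Klf10 in cultured over primary MDP and -0.10 to 0.27 for Klf2 in cultured over marrow pre-cDC1.

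Over all genes, DESeq2 called 1140 genes in d+32 over WT against 524 by edgeR, 1291 against 431 in d+32het, 2436 against 1438 in d+56het and 266 against 8 in d+32 over d+32het. Depth limits Klf7, at 5 to 209 counts, and Klf2 in primary MDP.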
